A study of Mus musculus with 48 samples.

Results

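The comparison described here is between hippocampal microglia of irradiated and of sham-treated mice 6 h after the procedure, over all genes of the table. Its members are 12 of the 48 samples of the series, 6 irradiated and 6 sham, each from its own animal, and 10132 of the 48526 genes in the table passed the filter on low values and were tested. All animals were C57BL/6 mice. The irradiated group received 8 Gy of X-rays to the whole brain as a single dose on postnatal day 21, the sham group received none, and both were killed 6 h later. The hippocampus was taken after perfusion, a mild enzymatic digestion freed its cells, and those that expressed Cx3cr1, a chemokine receptor gene of microglia, were sorted from it. Libraries for bulk RNA sequencing were then made with a Qiagen kit meant for single cells. The sort keeps any cell that expresses Cx3cr1, so other myeloid cells could pass it, and the sex of the animals is not given in the sources used here. The other times of the series, 2 h, 1 day and 1 week, have animals of their own.

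Ionising radiation breaks DNA, and the breaks activate the transcription factor p53, which switches on genes that stop the cell cycle, drive cell death, shut p53 itself down and adjust metabolism. Microglia are the resident macrophages of the brain. In the resting state they express a set of sensing genes such as P2ry12, and on injury they release cytokines and chemokines, partly through the transcription factor NF-kB, and respond to type I interferon.

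The 6 sham libraries did not form a single group. On the first principal component of the 12 libraries, which held 30.5% of the variance, sham libraries 1 to 4 lay at -55.6 to -40.8, sham libraries 5 and 6 at 7.34 and 8.97, and the irradiated libraries at 23.7 to 30.0. Sham library 4 also stood apart from the others on the second component (-55.3, 10.4% of the variance) and had the lowest depth. The labels give no reason for the gap between the sham libraries, and these sets were read from the values, so no test was made between them. On the first component of all 48 libraries (15.4% of the variance), sham libraries 1 to 4 lay at -43.06 to -36.01. The 2 h libraries of both groups lay at -43.68 to -10.06. Sham libraries 5 and 6 lay at 11.34 and 15.99 and the irradiated 6 h libraries at 12.34 to 21.15. Those of 1 day lay at 13.87 to 33.82. Contrasts with libraries 1 to 4 or with all 6 cross this gap, and so do the time differences taken from them. The part of the gap in these changes was not tested. Each effect was therefore tested against all 6 sham libraries and against each set, and it is said to hold where it passed the test in the same direction all 3 times. The contrasts share the irradiated libraries and are not independent of one another.

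**Figure D1:**
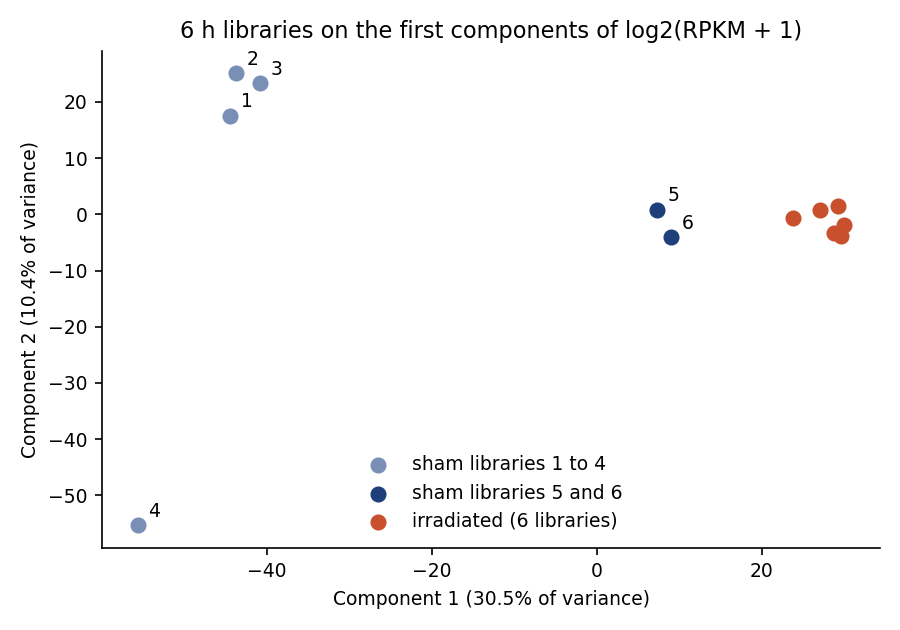
Positions of the 12 libraries of 6 h on the first components (axes in component units, computed from log2(RPKM + 1) of the tested genes), with the sham libraries numbered. Sham libraries 5 and 6 lie at 7.34 and 8.97 on the first component, nearer to the irradiated libraries (23.7 to 30.0) than to sham libraries 1 to 4 (-55.6 to -40.8).

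Reads on genes numbered 731819 to 3233667 in sham libraries 1 to 4, 2133611 to 2731025 in sham libraries 5 and 6 and 1366913 to 2443862 in the irradiated libraries. Mitochondrial genes took 5.88% to 7.11%, 3.09% to 3.27% and 2.35% to 4.34% of these reads. Markers of microglia summed to 46036 to 48523 RPM (reads scaled to a common total of reads on genes) in sham libraries 1 to 4, to 48057 and 50003 RPM in sham libraries 5 and 6 and to 35211 to 39333 RPM in the irradiated libraries, and 13 of 13 had reads. Of the 13, 6 fell with all 6 sham libraries and 2, P2ry12 among them, with each set. In bulk samples fewer cells of a type and less RNA per cell cannot be told apart. Of the other marker lists perivascular macrophages reached the highest sum, 174 RPM. Perivascular macrophage markers were at 112 to 174, 113 to 141 and 51.1 to 92.9 RPM in the same order, and oligodendrocyte markers at 57.7 to 105, 126 to 129 and 76.1 to 130 RPM. Astrocyte markers were at 11.4 to 24.6, 36.1 to 39.5 and 33.7 to 69.5 RPM, and neuronal markers reached at most 7.32 RPM. Of the lymphocyte markers Cd3e, Cd3g, Cd8a, Gzma, Ncr1 and Nkg7 had no read in any of the 12 libraries, and of the monocyte and neutrophil markers Ly6g and Ngp had none.

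Levels are in RPKM (reads per kilobase of gene, scaled to a common library total). The kilobases are those of the whole gene span with introns, so levels are not compared between genes. A change is the irradiated mean less the sham mean of log2(RPKM + 1), given ± its standard error. This scale understates the change of genes with low values. A single change is against all 6 sham libraries, and a pair of changes is against sham libraries 1 to 4 and then against sham libraries 5 and 6, unless the sentence says otherwise. Adjusted p-values come from limma over all tested genes, with a threshold of 0.05.

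Irradiation at 6 h was followed by a rise of p53 target genes and of chemokines and by a fall of several homeostatic microglia genes, and each of these groups had members that held with each set of sham libraries. Against all 6 sham libraries 1309 genes rose (12.9% of those tested) and 811 fell (8.00%). Against sham libraries 1 to 4 the counts were 1908 (18.8%) and 1193 (11.8%), and against sham libraries 5 and 6 they were 157 (1.55%) and 51 (0.503%). In all, 151 rises (1.49%) and 34 falls (0.336%) held. Without sham library 5 these numbers were 86 and 14, and without sham library 6 they were 75 and 10, because a single library then stands for that set. Of these 185 genes 172 had no overlap between the groups, against 7.85% of all genes tested. The 185 were chosen by tests on the same libraries, so this separation follows in part from the choice. The typical change of a gene that held was 1.25 in size against all 6, 1.29 against sham libraries 1 to 4 and 1.11 against sham libraries 5 and 6 (medians). Of the 2120 genes called with all 6, 1037 had a change against sham libraries 5 and 6 below 0.5 times that with all 6 or of the other sign.

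The contrast with 2 sham libraries is less precise, with a median standard error of 0.32 against 0.23 with all 6, so a gene that misses the threshold there is not shown to be without change. With a trend in gene span and GC content taken out of each library, 752 genes rose and 736 fell against all 6 sham libraries, so that 50.5% of the calls were rises in place of 61.7%, and 1064 rose and 1117 fell against sham libraries 1 to 4 (48.8% in place of 61.5%).

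**Figure D2:**
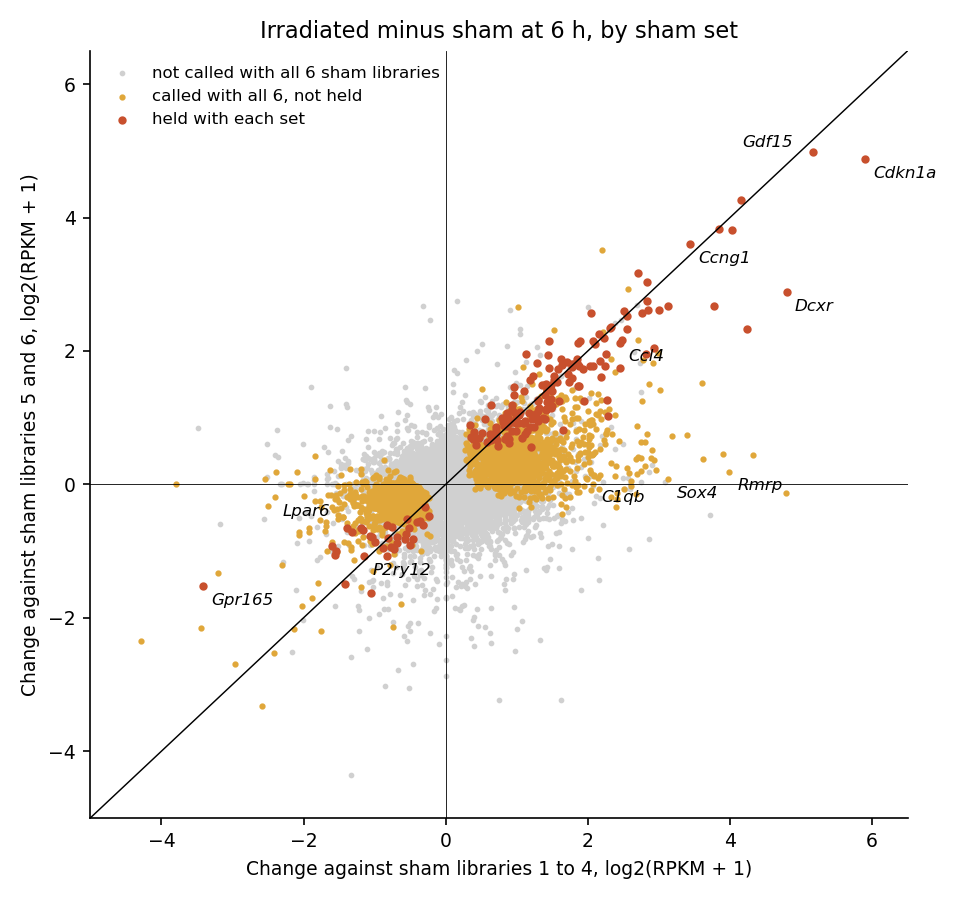
Each point is a gene, with its change against sham libraries 1 to 4 on the horizontal and against sham libraries 5 and 6 on the vertical axis (both log2(RPKM + 1)), and the diagonal marks equal change. Cdkn1a (5.89 and 4.88) and Gdf15 (5.16 and 4.99) lie far out near the diagonal, while Rmrp (3.99 and 0.19) and C1qb (2.07 and 0.01) lie along the horizontal axis.

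Targets of p53 were among the largest rises. Of 48 tested members of the p53 lists together, 34 rose and 2 fell against all 6 sham libraries, and 28 rises and 1 fall held, against a background of 1.49% and 0.336%. These and the other gene lists were chosen with earlier results of these data known, so such counts beside the background only describe the lists. Their median change was 1.37 with all 6, 1.43 with sham libraries 1 to 4 and 1.26 with sham libraries 5 and 6, where the medians over all genes were 0.08, 0.13 and 0.00. Of the 15 rises that held and ranked first by the smallest of their 3 changes (mean of 5 RPKM or more after irradiation), 9 are on these lists.

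Of the 12 genes that act on the cell cycle, 7 rose and 1 fell with each set. Cdkn1a (GRCm38 chromosome 17, 29090979 to 29100722) encodes p21, which blocks the kinases that drive the cell cycle. It stood at 1.03, 1.43, 2.42 and 1.40 RPKM in sham libraries 1 to 4, at 6.99 and 2.26 in sham libraries 5 and 6 and at 116, 148 and 199 (lowest, median and highest) in the irradiated libraries. The 6 irradiated libraries all lay far above every sham library, and sham library 5 was the highest of the sham. The change was 5.55 ± 0.25 with all 6 (adjusted p = 9.01e-22), 5.89 ± 0.26 with libraries 1 to 4 and 4.88 ± 0.32 with libraries 5 and 6 (3.84e-15).

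Ccng1, cyclin G1, which is a p53 target and helps restrain p53 (chromosome 11, 40748552 to 40755311), varied little among the sham libraries. It read 10.8, 11.5, 9.46 and 8.69 RPKM in sham libraries 1 to 4, 8.56 and 9.22 in libraries 5 and 6 and 98.2, 118 and 141 in the irradiated libraries. The sham sets thus lay side by side and the change hardly depended on the set, at 3.44 ± 0.13 and 3.60 ± 0.16 (adjusted p = 8.97e-24 and 8.69e-21).

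Psrc1, a microtubule-binding protein, had between 0 and 0.287 RPKM in the sham libraries and 10.8, 17.2 and 22.6 in the irradiated ones, a change of 3.95 ± 0.18 with all 6. Sesn2, a stress protein that holds back mTORC1, was lower in sham libraries 1 to 4 (2.67, 1.17, 1.85 and 0.888 RPKM) than in libraries 5 and 6 (3.75 and 5.25), and its irradiated libraries were at 27.98, 34.9 and 39.5. Its change was accordingly 3.77 ± 0.25 with the former and 2.68 ± 0.32 with the latter. The kinase Plk2 went the other way: its sham libraries 5 and 6 were the lowest, at 0.631 and 0.323 RPKM against 0.707 to 1.45 in libraries 1 to 4, and the irradiated libraries had 8.58, 12.6 and 15.4. The change of Plk2 was 2.71 ± 0.26 with libraries 1 to 4 and 3.16 ± 0.33 with libraries 5 and 6. Gtse1 (2.34 with all 6) and Zmat3, an RNA-binding p53 target (1.20), completed the rises.

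Some genes of this group moved otherwise. Sesn1, the close relative of Sesn2, fell by 1.01 with all 6 sham libraries and by 0.68 with libraries 5 and 6 (adjusted p = 0.00583). Ccng2, an unconventional cyclin, was at 43.2 to 66.9 RPKM in sham libraries 1 to 4, 23.3 and 19.7 in libraries 5 and 6 and 9.29 to 19.9 in the irradiated libraries. Its fall of 1.36 with all 6 was not called with libraries 5 and 6 (-0.54 ± 0.24, adjusted p = 0.402). The kinase Plk3, at 14.1 to 27.8 RPKM in irradiated and 4.63 to 9.20 in sham libraries, had no overlap but missed the threshold with libraries 5 and 6 (1.27 ± 0.39, adjusted p = 0.0831). Btg2 and Gadd45a, both early damage-response genes, were at 0.19 and 0.54 with all 6 and did not pass (adjusted p = 0.67 and 0.371).

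**Figure D3:**
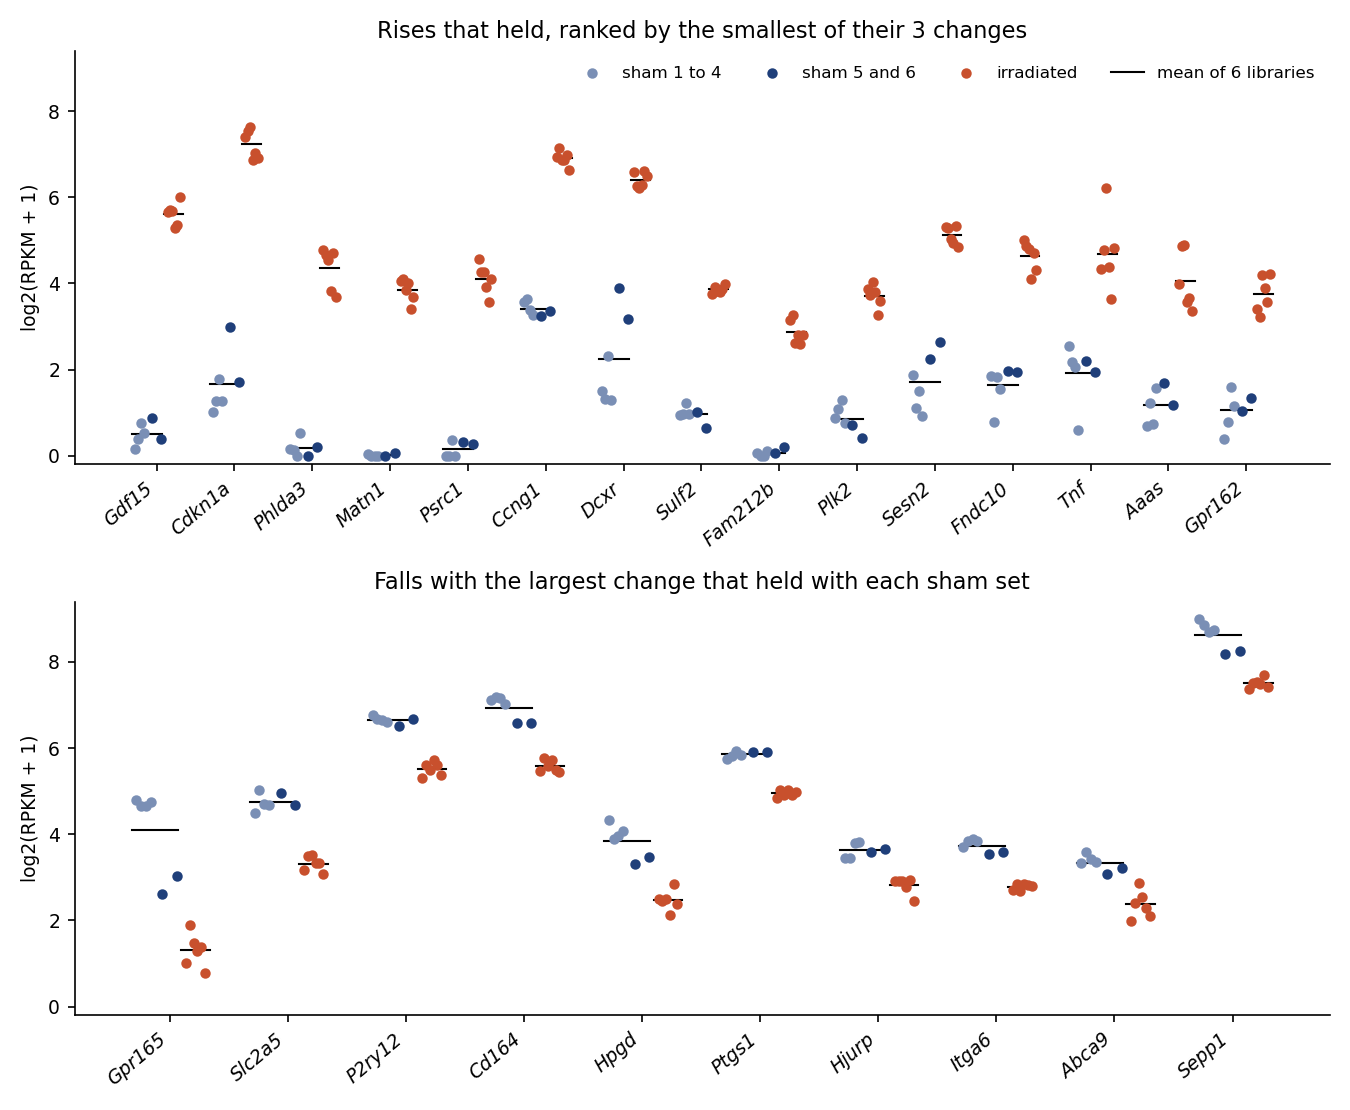
Values of each of the 12 libraries, as log2(RPKM + 1), for the 15 rises (top) and 10 falls (bottom) that held and ranked first by the smallest of their 3 changes, among genes with a mean of 5 RPKM or more in the higher group, with lines at the mean of each group of 6. In 25 of 25 genes the irradiated libraries do not overlap with any sham library, which follows in part from the choice of genes by these same values. Sham libraries 5 and 6 lie between sham libraries 1 to 4 and the irradiated ones for falls such as Gpr165, Cd164 and Sepp1.

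Of 14 genes of cell death, 9 rose with each set and none fell. Bbc3, which encodes PUMA and sets off mitochondrial apoptosis, rose by 2.19 with all 6 and 2.26 with libraries 5 and 6 (adjusted p = 2.52e-11 and 3.62e-07). Bax, which opens the outer mitochondrial membrane, rose by 3.60 and 2.32 in the same order. Pmaip1, or NOXA, was at 1.97 to 2.91 RPKM in sham libraries 1 to 4, 1.26 and 0.945 in libraries 5 and 6 and 5.13, 8.74 and 13.3 in the irradiated libraries, and rose by 1.68 ± 0.29 with all 6 and 2.14 ± 0.41 with libraries 5 and 6. Trp53inp1, which promotes p53-dependent death and autophagy, read 1.37 to 2.79 RPKM in all sham libraries and 10.02, 14.5 and 18.5 after irradiation (2.54 ± 0.16). Pidd1, a platform for caspase-2 (2.37 ± 0.21), the exonuclease gene Aen (1.84 ± 0.15), Ei24 (1.56 ± 0.13) and Perp (0.95) rose too. So did Bcl2l1, whose main product BCL-XL protects from apoptosis (1.31 with all 6 and 1.12 with libraries 5 and 6). Apaf1, the scaffold of the apoptosome, passed with all 6 (0.32 ± 0.09) and not with libraries 5 and 6 (0.38 ± 0.13, adjusted p = 0.143).

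Of 8 genes that feed back on p53, 4 rose with each set. Mdm2, the ubiquitin ligase that marks p53 for destruction (chromosome 10, 117688888 to 117710758), had 3.93, 3.79, 2.89 and 3.81 RPKM in sham libraries 1 to 4, 2.91 and 2.81 in libraries 5 and 6 and 10.5, 13.2 and 17.5 in the irradiated libraries. Every irradiated library lay above the highest sham library, and the change was 1.71 ± 0.16 with all 6 and 1.87 ± 0.23 with libraries 5 and 6 (adjusted p = 6.25e-11 and 1.51e-07). Its partner Mdm4 rose by 0.93 ± 0.13 with all 6 and 1.07 ± 0.18 with libraries 5 and 6. Phlda3, which restrains Akt signalling, was at 0 to 0.453 RPKM in the sham libraries and 11.8, 23.4 and 26.4 after irradiation (4.19 ± 0.18). Trp53, the gene of p53 itself, followed the sham sets: it read 3.04 to 3.73 RPKM in sham libraries 1 to 4, 10.4 and 14.1 in libraries 5 and 6 and 12.5, 14.7 and 15.3 in the irradiated libraries. It was called with all 6 (1.31 ± 0.24) and was at 0.24 ± 0.26 with libraries 5 and 6 (adjusted p = 0.912). Ppm1d, the phosphatase that switches off the damage signal, was at 0.11 with all 6 (adjusted p = 0.473).

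Of 15 p53 targets in metabolism, repair and secretion, 9 rose with each set. Gdf15, a stress hormone of the TGF-beta family (chromosome 8, 70629393 to 70632456), was at 0.113, 0.303, 0.687 and 0.446 RPKM in sham libraries 1 to 4, 0.837 and 0.306 in libraries 5 and 6 and 38.4, 49.9 and 63.4 in the irradiated libraries. The sham sets overlapped, with library 5 the highest, and the change was 5.16 ± 0.39 and 4.99 ± 0.50 (adjusted p = 1.20e-13 and 7.68e-10). Sulf2, an enzyme that trims heparan sulfate outside the cell, went from 0.562 to 1.34 RPKM in sham to 12.4, 13.5 and 14.9 in irradiated libraries (2.89 ± 0.10). The span of Sulf2 overlaps that of Ncoa3. Dcxr, a sugar reductase, differed between the sham sets, with 1.84, 1.48, 4.02 and 1.45 RPKM in libraries 1 to 4 and 13.8 and 7.96 in libraries 5 and 6. Its irradiated libraries had 73.4, 82.8 and 96.4 RPKM, and the change was 4.80 ± 0.35 and 2.88 ± 0.44. Ak1, adenylate kinase 1 (2.63 ± 0.17 and 2.04 ± 0.20), the thiamine transporter gene Slc19a2 (2.32 ± 0.17 and 2.35 ± 0.24), Ptp4a3 (1.72 and 1.25), Epha2 (1.63 and 1.73), Rps27l (1.46 and 1.82) and the co-stimulatory Cd80 (0.54 and 0.70) rose with all 6 and with libraries 5 and 6.

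The damage sensors and repair genes moved much less. Of 11 tested, only Chek2 rose with each set, where 1.49% of all genes did. Chek2, a kinase that relays the signal of DNA breaks, read 0.406 to 1.29 RPKM in the sham and 2.06, 2.48 and 3.31 in the irradiated libraries, a change of 1.06 ± 0.16 with all 6 and 1.09 ± 0.22 with libraries 5 and 6 (adjusted p = 2.59e-06 and 0.00195). Parp1, which senses breaks, fell by 0.54 with all 6 and was at -0.22 ± 0.19 with libraries 5 and 6 (adjusted p = 0.859). Genes outside these lists were among the same 15 rises. Matn1, a matrix protein of cartilage, had 0 to 0.0423 RPKM in the sham and 9.63, 14.3 and 16.1 in the irradiated libraries (3.84 ± 0.15). Fam212b, with 0 to 0.144 RPKM in sham and 4.999, 5.99 and 8.62 in irradiated libraries, changed by 2.80 ± 0.11. The nuclear pore gene Aaas (2.87 ± 0.44), Fndc10 (2.98 ± 0.37) and the orphan receptor gene Gpr162 (2.70 ± 0.28) also held.

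Promoters were read for the rises that held, because p53, NF-kB and the interferon factors bind known motifs. The sequences are from RefSeq on GRCm38.p6, 250 bases before to 50 after each start, and 23 of the 28 genes of the p53 lists that held had an entry. A p53 response element, taken as a pair of adjoining half-sites with at most 1 mismatch outside the conserved C and G of each (a pattern that reads the same on both strands), was present in the promoters of Ccng1, Cdkn1a, Gtse1 and Rps27l, 4 of 23 genes. It was present in 0.067% of all 32851 promoters of this length. The first count is of genes, some with several promoters, and the second is of single promoters. In Cdkn1a, Gtse1 and Rps27l another promoter of the gene lacked the element. These lists were made of known p53 targets, so the share describes how they were chosen as well. The capitals mark the element in the lines for Ccng1 (chr11:40755237-40755536, minus strand), Cdkn1a (chr17:29090729-29091028, plus strand) and Rps27l (chr9:66946163-66946462, plus strand), each shown 5′ to 3′ along its gene as examples of the element of the factor that names the lists, while that of Gtse1 is not shown:
Ccng1: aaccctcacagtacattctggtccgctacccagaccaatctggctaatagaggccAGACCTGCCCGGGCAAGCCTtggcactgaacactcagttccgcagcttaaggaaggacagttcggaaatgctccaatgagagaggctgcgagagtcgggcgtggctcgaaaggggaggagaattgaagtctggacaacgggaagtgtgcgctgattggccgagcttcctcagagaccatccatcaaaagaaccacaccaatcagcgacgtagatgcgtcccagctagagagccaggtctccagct
Cdkn1a: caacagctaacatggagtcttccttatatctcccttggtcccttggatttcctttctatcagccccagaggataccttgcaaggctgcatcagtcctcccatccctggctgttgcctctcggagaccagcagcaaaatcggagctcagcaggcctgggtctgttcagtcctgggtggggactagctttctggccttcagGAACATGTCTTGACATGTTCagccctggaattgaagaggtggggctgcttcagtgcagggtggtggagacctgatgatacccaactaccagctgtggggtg
Rps27l: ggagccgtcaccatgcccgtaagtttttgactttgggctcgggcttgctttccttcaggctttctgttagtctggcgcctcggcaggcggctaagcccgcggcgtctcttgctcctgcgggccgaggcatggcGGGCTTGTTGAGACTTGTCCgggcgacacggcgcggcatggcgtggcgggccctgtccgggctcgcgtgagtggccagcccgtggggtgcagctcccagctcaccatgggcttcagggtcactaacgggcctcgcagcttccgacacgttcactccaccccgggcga

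Genes of immune signalling were the second group of rises. Beside the counts of the immune lists stand the shares over all genes. With all 6 sham libraries 12.9% of all genes rose and 8.00% fell, and 1.49% and 0.336% held. Of 11 chemokine genes tested, 7 rose with each set of sham libraries. The median change of the 11 was 1.75 with all 6, 1.70 with libraries 1 to 4 and 1.83 with libraries 5 and 6. Ccl4 and Ccl3 encode chemokines that microglia release on activation. Their genes are related in sequence, and whether reads passed between them was not tested. Ccl4 (chromosome 11, 83662584 to 83664683) was at 120, 94.7, 87.4 and 61.2 RPKM in sham libraries 1 to 4, 128 and 96.2 in libraries 5 and 6 and 446, 476 and 562 in the irradiated libraries. Ccl3 was at 88.1, 100.01, 103 and 47.0, at 108 and 93.3 and at 299, 385 and 498 RPKM. For both, the sham sets overlapped and every irradiated library was higher. The changes of Ccl4 were 2.45 ± 0.40 and 2.12 ± 0.51 against the 2 sets (adjusted p = 8.29e-06 and 0.011), while those of Ccl3 were 2.25 ± 0.40 and 1.95 ± 0.51 (3.16e-05 and 0.0263).

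Ccl12, a monocyte attractant, read 8.78 to 18.1 RPKM in sham libraries 1 to 4, 20.5 and 22.6 in libraries 5 and 6 and 49.5, 81.1 and 90.4 after irradiation (2.21 ± 0.30 with all 6). Cxcl10, an interferon-induced attractant of T cells whose span overlaps Art3, had 1.46 to 4.47 RPKM in the sham and 12.4, 22.1 and 25.8 in the irradiated libraries. It rose by 2.04 ± 0.48 against libraries 1 to 4 and by 2.56 ± 0.61 against libraries 5 and 6. Cxcl16 (1.75 ± 0.26), Ccl7 (1.98) and Ccl2 (1.41), another monocyte attractant, completed the 7. Ccl6 alone of the 11 fell with libraries 5 and 6 (-1.47, adjusted p = 0.00643), but it was at 0.02 with libraries 1 to 4, so no fall held.

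Of 13 cytokine genes 9 rose with all 6 sham libraries and 2 held, Csf1 and Tnf. Csf1, the growth factor that keeps microglia alive, was at 1.13 to 2.52 RPKM in sham libraries 1 to 4, 2.96 and 2.61 in libraries 5 and 6 and 8.88, 12.03 and 15.3 in the irradiated libraries (2.24 ± 0.33 and 1.78 ± 0.42 against the 2 sets). Tnf, a central inflammatory cytokine, was at 0.520 to 4.88 RPKM in the sham libraries and at 11.4, 23.1 and 72.7 in the irradiated ones, where irradiated library 3 stood far above the rest. Its change was 2.76 ± 0.45 with all 6 and 2.61 ± 0.64 with libraries 5 and 6 (adjusted p = 0.0131). The interleukin-1 genes were called with all 6 and not with libraries 5 and 6: Il1a was at 1.48 and 1.25 against these (adjusted p = 0.261 with libraries 5 and 6), and Il1b at 0.79 and 0.32 (0.939). In the same order, Osm (1.82 and 1.36), Pdgfb (1.49 and 0.79) and Pdgfa (1.25 and 1.00) were likewise called with all 6 alone of these, though their irradiated libraries lay above every sham library for Pdgfb and Pdgfa. Il6 was at 0.02 with all 6 (adjusted p = 0.961). Among 26 genes of the NF-kB pathway 5 rose and 1 fell with all 6, and none held with libraries 5 and 6 (median 0.06). Over all genes, 12.9% rose and 8.00% fell with all 6, and 1.49% of rises and 0.336% of falls held, as shares of the genes tested.

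Of 27 interferon-stimulated genes 16 rose and none fell with all 6 sham libraries, and 2 held. Over all genes 12.9% rose and 8.00% fell with all 6, and rises held in 1.49%. The change with libraries 5 and 6 was above 0 in 26 of 27, with a median of 0.64 against 0.00 over all genes, while the single-gene tests passed for Ifit3 and Ifit1. Ifit3, an antiviral RNA-binding protein, had 0.535 to 1.78 RPKM in the sham and 2.501, 6.47 and 8.30 in the irradiated libraries (1.72 ± 0.31 and 1.65 ± 0.39). Ifit1, of the same family, had 0 to 0.368 and 0.369, 1.23 and 2.35 RPKM (0.88 ± 0.21 and 0.99 ± 0.27), so its lowest irradiated library lay just above the highest sham library. Ifit genes are close relatives, and reads could be split between them. Bst2, or tetherin, which holds budding viruses at the cell surface, differed between the sham sets, with 2.22 to 4.86 RPKM in libraries 1 to 4, 12.6 and 11.6 in libraries 5 and 6 and 23.9, 35.6 and 47.9 after irradiation. It was at 3.01 ± 0.49 and 1.41 ± 0.62 (adjusted p = 0.376). Irf7, the factor that amplifies the interferon response, was at 1.31 with all 6 and 1.76 with libraries 5 and 6 (adjusted p = 0.0195 and 0.13). Ifitm3, which blocks viral entry, was at 2.92 with libraries 1 to 4 and 0.36 with libraries 5 and 6.

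The interferon-stimulated response element, searched as GAAANNGAAA on both strands, occurred in the promoters of both Ifit3 and Ifit1, each with 2 copies. It was also in that of Cxcl10, 1 of 5 cytokine and chemokine genes that held and had an entry. It occurred in 3.44% of all promoters of this length. A kB site, searched as GGGANNTTCC on both strands, occurred in 2 of 5 cytokine and chemokine genes that held and had an entry, Csf1 and Cxcl10, and in 1.47% of all promoters. Of the 5 antigen presentation genes that held, 0 had the interferon element and 0 the kB site in the exact letters searched. Other forms of these elements were not searched, so these counts do not show that such forms are absent. In the lines for Ifit3 (chr19:34583279-34583578, plus strand) and Ifit1 (chr19:34640639-34640938, plus strand) the capitals mark the interferon elements. In that for Cxcl10 (chr5:92348840-92349139, minus strand) the first run of capitals is the interferon element and the second the kB site. The letters of the interferon element also occurred in the promoter of Plk2 and those of the kB site in that of Gtse1, both on the p53 lists, and neither they nor Csf1 are shown. The 3 shown are examples from the interferon and chemokine lists:
Ifit3: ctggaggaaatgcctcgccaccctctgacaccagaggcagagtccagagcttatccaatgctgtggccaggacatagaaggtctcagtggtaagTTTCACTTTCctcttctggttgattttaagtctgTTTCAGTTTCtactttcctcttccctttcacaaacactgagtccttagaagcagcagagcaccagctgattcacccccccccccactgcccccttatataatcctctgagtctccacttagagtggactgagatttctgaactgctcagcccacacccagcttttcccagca
Ifit1: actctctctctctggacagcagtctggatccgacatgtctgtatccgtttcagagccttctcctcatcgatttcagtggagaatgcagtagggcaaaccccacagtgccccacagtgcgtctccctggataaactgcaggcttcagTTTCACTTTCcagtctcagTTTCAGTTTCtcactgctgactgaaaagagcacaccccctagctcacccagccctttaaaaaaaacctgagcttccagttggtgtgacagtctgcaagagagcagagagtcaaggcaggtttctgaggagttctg
Cxcl10: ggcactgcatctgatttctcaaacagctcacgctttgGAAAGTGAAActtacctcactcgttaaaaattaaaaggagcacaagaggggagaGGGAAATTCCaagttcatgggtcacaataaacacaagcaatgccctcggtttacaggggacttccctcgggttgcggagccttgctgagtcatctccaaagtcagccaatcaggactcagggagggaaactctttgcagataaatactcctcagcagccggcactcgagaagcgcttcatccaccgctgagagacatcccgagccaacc

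Antigen presentation genes rose in 8 of 19 cases with all 6, and 5 held, where 12.9% of all genes rose and 1.49% held as rises. H2-K1, a classical class I heavy chain, was at 95.4, 94.99, 94.1 and 48.1 RPKM in sham libraries 1 to 4, 84.2 and 73.9 in libraries 5 and 6 and 213, 292 and 322 in the irradiated libraries. All irradiated libraries were above all sham libraries, and the change was 1.78 ± 0.29 and 1.80 ± 0.36 (adjusted p = 5.35e-06 and 0.00136). H2-D1 (1.28 ± 0.24), H2-Q7 (1.75 ± 0.29), the peptide transporter gene Tap1 (1.14 ± 0.20) and Cd80 also held. The class I genes are near copies of one another, so reads may be assigned to the wrong member. Tap1 overlaps Psmb9, and its irradiated values (16.1 to 26.1 RPKM) overlapped with the highest sham library (17.2). Cd74, the class II invariant chain, had 0.914 to 4.14 RPKM in the sham and 6.41, 14.2 and 20.8 in the irradiated libraries, and missed the threshold with libraries 5 and 6 (1.68 ± 0.49, adjusted p = 0.0557). H2-Aa, a class II chain, was at -0.07 with all 6 (adjusted p = 0.902), and B2m, the class I light chain, at 0.15 (0.54).

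**Figure D4:**
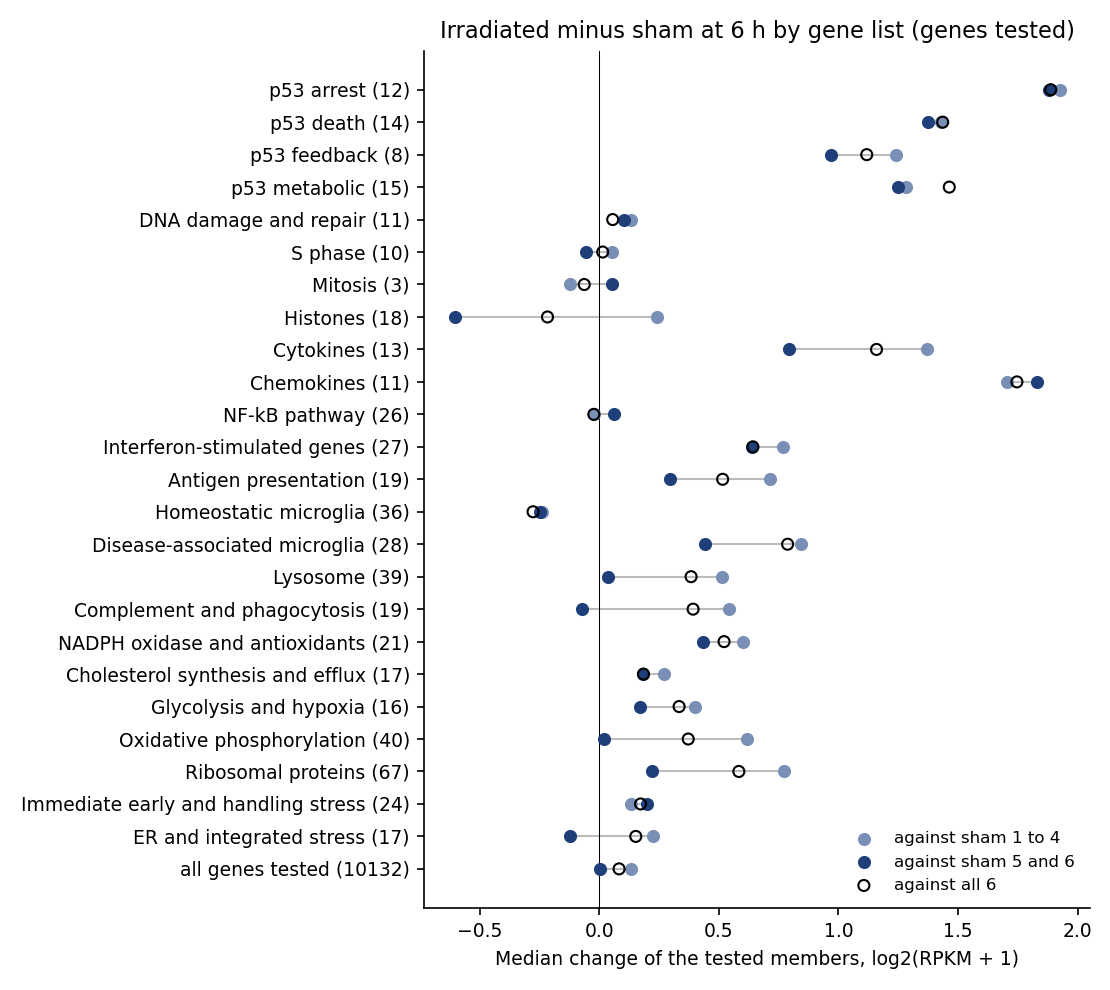
Median change of the tested members of each gene list (number of genes in brackets) against sham libraries 1 to 4, sham libraries 5 and 6 and all 6, on the log2(RPKM + 1) scale. The 4 p53 lists and the chemokines have medians of 0.97 to 1.92 whichever sham libraries are used, while complement and phagocytosis has 0.54 against libraries 1 to 4 and -0.07 against libraries 5 and 6.

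Homeostatic microglia genes included several of the falls that held. Of 36 tested, 14 fell and 3 rose with all 6 sham libraries, and 5 falls and 1 rise held. The shares over all genes were 8.00% and 12.9% with all 6, and 0.336% and 1.49% held, falls first. P2ry12, the ADP receptor that guides microglial processes to injury (chromosome 3, 59216272 to 59262871), was at 108, 101, 99.2 and 96.7 RPKM in sham libraries 1 to 4, 90.2 and 102 in libraries 5 and 6 and 38.6, 45.9 and 52.2 in the irradiated libraries. The sham sets overlapped and every irradiated library was below them. The change was -1.15 ± 0.14 and -1.08 ± 0.18 (adjusted p = 4.60e-08 and 0.0001). P2ry12 lies within Med12l, so reads of the other gene may be among these.

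Slc2a5, a fructose transporter that marks microglia in the brain, behaved in the same manner, with 21.7, 31.5, 25.1 and 24.8 RPKM in sham libraries 1 to 4, 29.9 and 24.7 in libraries 5 and 6 and 7.46, 9.05 and 10.4 after irradiation. It changed by -1.42 ± 0.19 and -1.50 ± 0.24. Gpr165, an orphan receptor gene, was at 24.3 to 27.0 RPKM in sham libraries 1 to 4, 5.17 and 7.25 in libraries 5 and 6 and 0.726, 1.53 and 2.71 in the irradiated libraries. Its fall held (-1.53 ± 0.36 with libraries 5 and 6, adjusted p = 0.00882), but was -3.41 ± 0.28 with libraries 1 to 4. Hpgd, which inactivates prostaglandins, went from 13.9 to 19.05 and from 8.98 and 10.03 to 3.35, 4.56 and 6.17 RPKM (-1.60 ± 0.14 and -0.93 ± 0.18).

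The rise that held was P2ry6, the UDP receptor that triggers phagocytosis (1.20 and 0.56, adjusted p = 0.017 with libraries 5 and 6). Further falls were called with all 6 and not with libraries 5 and 6. Gpr34, a lysophosphatidylserine receptor gene that lies within Cask, was at 283 to 309, at 184 and 207 and at 122 to 164 RPKM, without overlap (-0.50 ± 0.14 with libraries 5 and 6, adjusted p = 0.0532). Tgfbr1, a receptor for the cytokine that keeps microglia in their resting state, was at -0.91 ± 0.14 with all 6 and -0.34 ± 0.16 with libraries 5 and 6 (0.47). Sall1 (-0.87 ± 0.18), Siglech (-0.54 ± 0.11) and Fcrls (-0.83 ± 0.17) were called with all 6, with changes of -0.60, -0.51 and -0.66 with libraries 5 and 6. Neither the sorting gene Cx3cr1 nor Tmem119 passed: Cx3cr1 was at 28.7 to 33.1 RPKM in sham and 24.0 to 28.2 in irradiated libraries (-0.24 ± 0.09, adjusted p = 0.0564), and Tmem119 at 556 to 1014 and 757 to 1073 RPKM (0.25 ± 0.19, 0.378). The span of Cx3cr1 overlaps several genes.

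Other falls that held were of genes outside this list. Cd164, a sialomucin of endosomes and lysosomes, was at 138, 144, 143 and 129 RPKM in sham libraries 1 to 4, 94.6 and 95.03 in libraries 5 and 6 and 42.5, 45.4 and 54.0 after irradiation (-1.54 ± 0.13 and -0.999 ± 0.16). Ptgs1, cyclooxygenase 1, which makes prostaglandins, was at 52.97 to 59.8 RPKM in all sham libraries and at 27.6, 30.1 and 31.7 in the irradiated ones, so that the sham libraries agreed within a narrow range (-0.91 ± 0.10 with all 6). Sepp1, the selenium carrier selenoprotein P, had 414 to 509, 289 and 303, and 164, 180 and 208 RPKM (-1.32 ± 0.12 and -0.71 ± 0.15). The integrin gene Itga6 (-0.95 ± 0.09), the transporter gene Abca9 (-0.97 ± 0.14) and Hjurp, a chaperone of the centromeric histone (-0.81 ± 0.15), fell as well.

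Among receptors and enzymes of the activated state, a few rises held. Beside the counts of this and the following lists stand the shares over all genes, of which 12.9% rose and 8.00% fell with all 6, and 1.49% rose and 0.336% fell with each set. Complement and phagocytosis had 9 rises and 3 falls with all 6 among 19 tested genes, and 3 rises held. C3ar1, the receptor of the complement peptide C3a, was at 33.0 to 35.2 RPKM in sham libraries 1 to 4, 42.0 and 36.8 in libraries 5 and 6 and 76.5, 93.8 and 112 after irradiation (1.43 ± 0.13 and 1.24 ± 0.17). C5ar1, the receptor of C5a, went from 5.55 to 9.50 RPKM over all sham libraries to 21.8, 29.3 and 47.4 (1.86 ± 0.20), and Pros1, a bridging ligand for dead cells, rose by 0.48 ± 0.10. C1qb, a chain of the complement starter C1q, showed how the sets differ: it was at 92.1 to 132 RPKM in sham libraries 1 to 4, 484 and 478 in libraries 5 and 6 and 446, 492 and 503 in the irradiated libraries. Its change was 2.07 ± 0.12 with the former and 0.01 ± 0.15 with the latter.

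Of 28 disease-associated microglia genes, a program of microglia around plaques and in degeneration, 18 rose and 1 fell with all 6, and Cybb, Cd9 and Csf1 held. Cybb, the catalytic subunit of the phagocyte NADPH oxidase, was at 0.145 to 0.442 RPKM in sham and 1.00, 1.63 and 1.87 in irradiated libraries (1.04 ± 0.11), and the tetraspanin gene Cd9 at 6.33 to 8.93 and 11.6, 12.9 and 15.5 (0.82 ± 0.12). Apoe, the lipid carrier, was at 69.1 to 106, at 215 and 181 and at 193, 231 and 248 RPKM, and was called with all 6 and not with libraries 5 and 6 (0.97 ± 0.27 and 0.18 ± 0.34 in that order). Of 21 NADPH oxidase and antioxidant genes 12 rose with all 6, and Cybb, Hmox1 and Nfe2l2 held. Hmox1, which degrades haem, changed by 1.55 ± 0.33 and Nfe2l2, the master regulator NRF2, by 0.52 ± 0.11. Of 39 lysosome genes 18 rose and 5 fell with all 6. Gusb, beta-glucuronidase, held (52.95 to 77.5 RPKM in sham, 129, 141 and 164 in irradiated libraries, 1.18 ± 0.10), as did Cstb, an inhibitor of cathepsins (1.95 ± 0.26). The cathepsin genes Ctsb (0.79 ± 0.11) and Ctsz (1.15 ± 0.19) were called with all 6 and were at 0.43 ± 0.13 and 0.60 ± 0.24 with libraries 5 and 6 (adjusted p = 0.0878 and 0.271).

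Some housekeeping genes were called with all 6 sham libraries and, Rps19 apart, not with libraries 5 and 6. Of 67 ribosomal protein genes 26 rose and none fell with all 6, 33 with libraries 1 to 4 and 1, Rps19, with libraries 5 and 6. Their median change was 0.77 with libraries 1 to 4 and 0.22 with libraries 5 and 6. The values of Rps19 were 3.02 to 6.51, at 12.1 and 8.97 and at 18.1, 22.9 and 24.4 RPKM (2.29 ± 0.19 and 1.02 ± 0.24). Ribosomal protein genes have many processed copies in the genome, so their reads are uncertain. Of 40 oxidative phosphorylation genes 12 rose with all 6, 21 rose and 1 fell with libraries 1 to 4 and none was called with libraries 5 and 6 (medians 0.37, 0.62 and 0.02). The share of mitochondrial reads given above also differed between the sham sets, and its part in these values was not tested. Most of that share was mt-Rnr2, a mitochondrial ribosomal RNA. It took 5.52% to 6.81% of reads in sham libraries 1 to 4 and 3.02% and 2.79% in libraries 5 and 6.

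The division is seen in the 6 rises and 6 falls with the largest change with all 6 sham libraries among genes with a mean of 5 RPKM or more whose change with libraries 5 and 6 was under 0.3 in size or of the other sign. Rmrp, the RNA of a ribonuclease complex, was at 10.1 to 149 RPKM in sham libraries 1 to 4, 647 and 808 in libraries 5 and 6 and 646, 802 and 1110 in the irradiated libraries (3.99 ± 0.60 and 0.19 ± 0.76). The AP-1 factor gene Jund was at 8.19 to 11.9, at 54.4 and 75.6 and at 45.6, 70.2 and 99.4 RPKM (2.61 ± 0.50 and 0.06 ± 0.63). Sox4, a transcription factor gene (3.13 and 0.08), Scarna2 (2.80 and 0.28), Fam195b (2.40 and 0.28) and Banf1, a DNA-bridging nuclear protein (2.51 and -0.07), did alike. Among the falls Lpar6, a lysophosphatidic acid receptor gene within Rb1, was at 284 to 472, at 87.7 and 85.0 and at 44.1, 86.8 and 109 RPKM (-2.41 ± 0.37 and -0.19 ± 0.47). The changes of Galnt1 were -1.996 and -0.17, those of Crkl -2.09 and 0.18, those of Stk4 -1.55 and -0.21, those of Zfp36l2 -1.54 and -0.23 and those of Ncl, nucleolin, -1.84 and 0.43. In each of these 12 genes the irradiated libraries overlapped with the sham libraries, which their choice by a small change with libraries 5 and 6 favours.

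Genes of proliferation and of the remaining lists gave few calls. Of 10 S phase genes Mcm6 fell with all 6 (-0.44 ± 0.14) and was at -0.29 ± 0.20 with libraries 5 and 6 (adjusted p = 0.744). Of 22 mitosis genes 3 passed the filter on low values, with a median change of -0.06. Of 18 histone genes, whose copies are near identical, 2 fell with all 6 and none held: Hist3h2a was at -1.12 ± 0.33 and Hist1h1d at -1.69 ± 0.60. Of 17 cholesterol genes 5 rose and 1 fell with all 6, of 16 glycolysis and hypoxia genes 5 rose and 2 fell, and none of the rises held, while Slc2a5, a member of the latter list, is the fall given above. Of 17 genes of the endoplasmic reticulum and integrated stress responses 3 rose and 4 fell with all 6, and Sesn2 held. Hspa5, the chaperone BiP, was at -0.68 ± 0.16 with all 6 and -0.18 ± 0.20 with libraries 5 and 6. Of 24 immediate early and handling-stress genes 1, Jund, was called with all 6.

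The effect at 6 h was then compared with those at 2 h and 1 day, each time with its own sham animals. The lowest depths at these times were 395761 reads on genes in irradiated library 2 of 2 h and 175382 in sham library 6 of 1 day. The 6 h effect was above the 2 h effect for 563 genes (5.56%) and below it for 377 (3.72%). It was above the 1 day effect for 271 genes (2.67%) and below it for 173 (1.71%), 444 calls together. Without sham library 1, 4, 5 or 6 the calls for 1 day were 284, 292, 801 and 803. With a trend in gene span and GC content taken out, the 6 h effect was above that at 2 h in 48.7% of calls in place of 59.9%, and above that at 1 day in 49.1% in place of 61.0%. Of the genes that held at 6 h, 10 were named for each time. For both times 10 of 10 kept the sign of the difference when the 6 h effect was taken from sham libraries 5 and 6, but 4 passed the test for 2 h and 2 for 1 day, of 85 and 32 calls in all. The kept sign follows in part from the choice of genes that held with these libraries.

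Early genes included Cxcl10, which was at 248 ± 95.5 RPKM (SD, n = 6) at 2 h, 20.3 ± 5.54 at 6 h and 14.6 ± 7.63 at 1 day in irradiated animals, against 4.75 ± 4.56, 3.59 ± 1.09 and 4.23 ± 2.01 in the sham. The 6 h minus 2 h difference was -3.55 ± 0.61 (adjusted p = 0.000129), and -3.20 ± 0.78 with libraries 5 and 6 (0.0311). Mdm2 went from 33.7 ± 8.79 to 13.3 ± 2.65 and 9.67 ± 2.44 RPKM in the irradiated groups (6 h minus 2 h, -1.25 ± 0.23). Pmaip1 went from 36.8 ± 16.2 to 8.72 ± 3.26 and 2.24 ± 1.12 (-2.02 ± 0.41), and Cxcl16 differed by -1.51 ± 0.37. With libraries 5 and 6 these 3 differences were -1.08, -1.56 and -1.42 (adjusted p = 0.0641, 0.237 and 0.124).

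**Figure D5:**
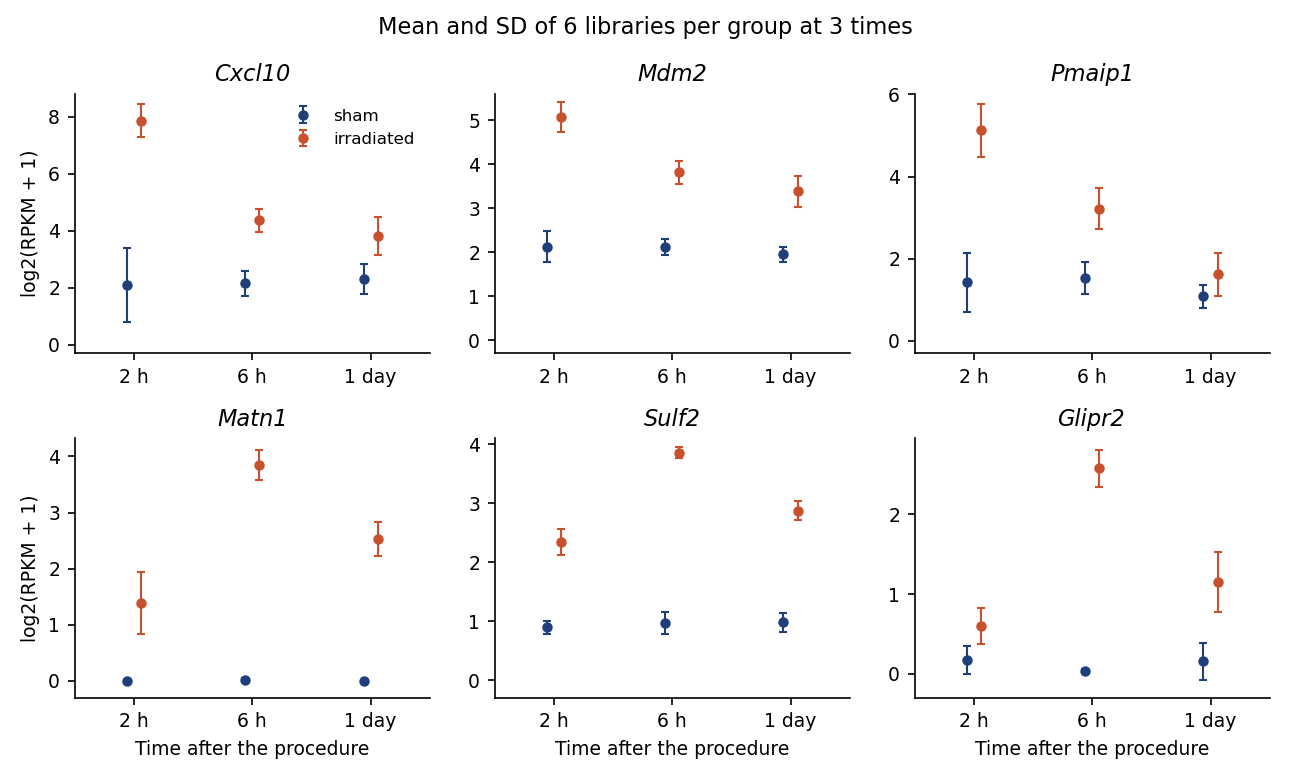
Mean and SD of log2(RPKM + 1) over 6 libraries per group at 2 h, 6 h and 1 day for 6 genes. Irradiated Cxcl10, Mdm2 and Pmaip1 have their highest mean at 2 h, and irradiated Matn1, Sulf2 and Glipr2 at 6 h.

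Other genes had a larger effect at 6 h than at 2 h. Matn1 was at 1.80 ± 1.20, 13.7 ± 2.55 and 4.90 ± 1.12 RPKM at 2 h, 6 h and 1 day in the irradiated groups, and the 6 h effect exceeded that at 2 h by 2.44 ± 0.21 and that at 1 day by 1.30 ± 0.21 (adjusted p = 4.85e-11 and 0.000133). With libraries 5 and 6 the differences of Matn1 were 2.43 and 1.29 (1.06e-07 and 0.0138). Glipr2, a Golgi-associated protein, was at 0.529 ± 0.24, 5.02 ± 1.09 and 1.28 ± 0.573 RPKM, with differences of 2.11 ± 0.19 and 1.55 ± 0.19 that also passed with libraries 5 and 6 (2.10 and 1.53). Sulf2 was at 4.11 ± 0.805, 13.6 ± 0.886 and 6.37 ± 0.885 RPKM and differed by 1.45 ± 0.14 and 1.00 ± 0.14, and by 1.59 and 1.14 with libraries 5 and 6 (adjusted p = 1.06e-07 and 0.000348). Gdf15 was at 12.8 ± 9.93, 48.8 ± 9.09 and 3.58 ± 1.70 RPKM. Its difference to 1 day was 3.40 ± 0.49 and passed with libraries 5 and 6 (3.28, adjusted p = 0.00722), and that to 2 h was 2.37 ± 0.49 and did not (2.26, 0.0946). Dcxr, at 8.86 ± 2.49, 84.4 ± 10.6 and 24.8 ± 10.8 RPKM, differed by 2.82 ± 0.51 and 2.85 ± 0.51, and by 1.55 and 1.57 with libraries 5 and 6 (0.302 and 0.327). Slamf9, an immune receptor gene, was at 15.5 ± 8.18 RPKM at 2 h and at 84.0 ± 8.54 and 96.8 ± 21.4 RPKM at 6 h and 1 day, so its effect at 6 h was above that at 2 h (2.57 ± 0.39) and its difference to 1 day did not pass (0.45 ± 0.39, adjusted p = 0.584).

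Some falls were deeper at 6 h than at another time. Gpr165 was at 6.05 ± 1.70 RPKM at 2 h and 1.55 ± 0.691 RPKM at 6 h in the irradiated groups, and its 6 h minus 2 h difference of -1.58 ± 0.45 was -0.32 with libraries 5 and 6 (adjusted p = 0.943). Ptgs1 was at 34.7 ± 5.17, 30.0 ± 1.57 and 46.7 ± 8.35 RPKM in the irradiated groups and at 56.2 ± 6.97, 57.1 ± 2.61 and 54.7 ± 3.45 in the sham, a difference to 1 day of -0.66 ± 0.13 (adjusted p = 0.00236) that also passed with libraries 5 and 6 (-0.71, 0.0497). Cd164 was at 129 ± 8.23, 47.1 ± 4.86 and 74.6 ± 16.1 RPKM. Its 6 h fall was larger than that at 2 h (-1.18 ± 0.18, and -0.83 with libraries 5 and 6, adjusted p = 0.0396) and than that at 1 day (-0.97 ± 0.18, and -0.61, 0.293). Itga6 was at 7.26 ± 0.984, 5.90 ± 0.336 and 10.6 ± 1.19 RPKM, with a difference to 1 day of -0.81 ± 0.13, and of -0.64 with libraries 5 and 6 (0.0615). The differences of Abca9 and Fam91a1 to 1 day were -0.71 ± 0.19 and -0.82 ± 0.16 and did not pass with libraries 5 and 6 (-0.52 and -0.34). Those of Gpr162 (2.05 ± 0.40), Amdhd2 (1.86 ± 0.33) and Csf1 (1.67 ± 0.42) were of the other sign and did not pass there either (1.91, 1.18 and 1.36). The 1 day sham libraries of Csf1 varied widely, at 4.27 ± 6.52 RPKM with a median of 1.88 and a highest value of 17.5.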

How the data were processed

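Bulk RNA sequencing of sorted hippocampal microglia gave 48 libraries in 8 groups of 6 animals. STAR 2.6.1d and featureCounts 1.5.1 on GRCm38 (mm10) are named in the submitters' processing notes, beside FastQC 0.11.8 and bcl2fastq 2.20.0. The authors deposited RPKM values. The deposited RPKM values, multiplied by the gene span, were whole reads over one of 48 library totals, up to the factor of the unit, and in 97.95% of values that total was another library's. Reads were therefore recovered (100% of 719081 values above 0 were whole within 0.001) and RPKM recomputed with each library's own total.

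Genes with RPKM of 1 or more in at least 6 of 48 libraries were tested with limma 3.58.1 (R 4.3.3) on log2(RPKM + 1), with trend and robust variance and Benjamini-Hochberg adjustment over all genes. All 8 groups entered the fit, and for the sham sets 9. The procedure was tested on simulated reads, whose spread was set and not taken from these data. Changes of 2-fold were called in 16% of cases with all 6 sham libraries, 10% with libraries 1 to 4 and 5% with libraries 5 and 6. Those of 4-fold were called in 68%, 60% and 32% of cases. Of the calls, 5.62%, 2.78% and 5.13% were genes left unchanged in the simulation. The ranges of depth of the 6 h libraries are given with the results, and depth sets the precision of low genes. Strand was not given in the sources used here, so overlapping genes cannot be told apart. Groups came from the labels. The libraries of a group are separate animals.

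Genes were named by rule: the 15 rises and 10 falls that held and ranked first by the smallest of their 3 changes, with a mean RPKM of 5 or more in the higher group, 6 rises and 6 falls lost with sham libraries 5 and 6, up to 4 held and 2 lost members of each list, and 5 genes in each direction for each difference between times. Bax, Bbc3 and other list members were named after their values were seen. Some genes counted in the lists are not reported here by name. The members and the gene lists were chosen with earlier results of these data known. Alternatives were another pseudocount, no filter, other scaling, the values as deposited, voom, a span and GC trend, the 6 h libraries alone, a replicate block and leaving out each library.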

Additional observations from a re-analysis of the deposited data

Results flagged for a closer look

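In 3 of 50 groups of 6 libraries (25 genes) a single library stood apart from the other 5 by the Dixon test, which chance gives in about 1 in 20 groups. These were Cdkn1a in sham library 5 (6.99 RPKM), Phlda3 in sham library 4 (0.453 RPKM) and Tnf in irradiated library 3 (72.7 RPKM).

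For 24 differences among these genes, the effect of irradiation at 6 h differed from that at another time by the test of the difference itself (limma, adjusted over all genes, n = 6 per group). All 24 kept their sign with sham libraries 5 and 6 alone, and 7 were still called. These genes were chosen for holding with libraries 5 and 6, and the contrasts share libraries, so the kept sign follows in part from the choice. Above the 2 h effect lay the 6 h effects of Gdf15 (2.37), Matn1 (2.44), Psrc1 (0.87), Dcxr (2.82), Sulf2 (1.45), Fndc10 (1.99) and Gpr162 (1.89). Below the 2 h effect lay those of Plk2 (-1.12), Gpr165 (-1.58), Slc2a5 (-0.73), Cd164 (-1.18) and Sepp1 (-0.95). Above the 1 day effect lay those of Gdf15 (3.40), Phlda3 (1.05), Matn1 (1.30), Ccng1 (0.68), Dcxr (2.85), Sulf2 (1.00), Plk2 (1.13) and Gpr162 (2.05). Below the 1 day effect lay those of Cd164 (-0.97), Ptgs1 (-0.66), Itga6 (-0.81) and Abca9 (-0.71).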

How the results depend on the processing

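The cause of the changes below was not tested, except that fewer libraries entered where some were left out. With the values as deposited, rises and falls numbered 56 and 8 against all 6 sham libraries, 92 and 39 against libraries 1 to 4 and 19 and 6 against libraries 5 and 6, 19 rises and 0 falls held, and 3 and 0 differences to 2 h and 1 day were called. There the change of Cd9 with libraries 5 and 6 turned to -0.38. With the span and GC trend removed, 752 and 1064 genes rose against all 6 and against libraries 1 to 4, and 587 and 169 time differences were called. With the 6 h libraries fitted alone 493 genes fell against all 6. Without the filter 315 fell against libraries 5 and 6. The falls that held were 59 by RPM and 54 by voom. Leaving out 1 library gave 75 to 164 rises and 18 to 55 falls against libraries 5 and 6, 75 to 157 rises and 10 to 35 falls that held, and 284 to 803 calls for 1 day. With libraries 1 to 4 alone the time differences numbered 1980 and 1428, and with libraries 5 and 6 alone 85 and 32. Deviations of same-numbered libraries from their group means had correlations of -0.012 to 0.036. The sham deviations were taken from the mean of all 6 and so hold the gap between the sham sets. These correlations therefore cannot show whether the numbers pair the libraries. A replicate block gave 88 rises and 16 falls against libraries 5 and 6, of which 84 and 12 held. Of 62 named genes that held, 30 lost their call with libraries 5 and 6 in at least 1 fit without a library, 19 with the replicate block, 7 with the 6 h libraries alone, 5 with another pseudocount, 3 with the trend removed, 3 by voom, 2 by RPM, 1 by median-ratio scaling and 49 with the values as deposited. Depth limits the genes with low values.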

Other observations

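The sham sets themselves differed in named genes, chosen here after their values were seen and not tested. Of 10132 genes, 912 were higher and 339 lower by 1 or more on the log2(RPKM + 1) scale in sham libraries 5 and 6 than in sham libraries 1 to 4. Edf1, a transcriptional coactivator, had means of 93.7 and 7.30 RPKM in libraries 5 and 6 and libraries 1 to 4 (difference 3.46), and Ifitm3, an antiviral membrane protein, 63.9 and 9.06 RPKM (2.56). Eif3k, a subunit of a translation initiation factor, had 16.01 and 159 RPKM (-3.13), and the transcription factor gene Cebpd 7.66 and 66.9 RPKM (-2.18). Egr1, an immediate early gene, had 173 and 613 RPKM (-1.72). In the irradiated libraries the change of Egr1 was 0.79 against libraries 5 and 6 and -0.36 against all 6. Xist, the RNA of the inactive X chromosome, was at 1115 to 1364 RPM in sham libraries 1 to 4, 531 to 581 in sham libraries 5 and 6 and 444 to 518 in the irradiated libraries, while the Y-linked genes Ddx3y, Eif2s3y, Kdm5d and Uty had no read in any of the 12. What separates the sham sets was not tested.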
